A study of Mus musculus with 22 samples.

Results

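The subunits of the oxidative phosphorylation machinery were examined in mouse liver RNA, with those encoded in mitochondrial DNA set beside those encoded in the nucleus. Members were all protein-coding rows whose GENCODE symbol names a subunit of complexes I to V by its usual prefix (mt-Nd, mt-Co, mt-Cyt, mt-Atp, Nduf, Sdh, Uqcr, Cox4 to Cox8 and Atp5). The rule found 98 of the 53392 rows of the table, 13 mitochondrial and 85 nuclear. By complex, 42 belonged to complex I, 4 to complex II, 9 to complex III, 23 to complex IV and 20 to complex V. The rule used names alone and no measured value. All 13 mitochondrial rows and 79 of the 85 nuclear rows passed the filter on low counts. The other 6 rows were Cox4i2, Cox6a2, Cox7b2, Cox8b, Cox8c and a second gene model of Atp5o, which held between 0 and 80 estimated counts over all libraries together.

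The livers came from C57BL/6 mice in 4 groups. There were 5 germ-free pregnant, 6 germ-free non-pregnant, 5 conventional pregnant and 6 conventional non-pregnant libraries. Pregnant animals were taken at gestation day 15, all groups ate the same autoclaved chow, and the labels name no transgene or drug. Conventional females were mated overnight, whereas germ-free females stayed with males for several days and their day of conception was assumed, so the stage is less certain in the germ-free group. Labelled ages, whose unit is not given, were 91 to 121 in germ-free pregnant, 92 to 105 in germ-free non-pregnant and 70 to 77 in both conventional groups. Age and microbial status therefore cannot be told apart. The labels do not say that each library is a separate animal, and p-values measure only the spread between these libraries.

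Oxidative phosphorylation passes electrons from NADH and succinate through complexes I to IV to oxygen and uses the resulting proton gradient to drive ATP synthase, also called complex V. Mitochondrial DNA encodes core hydrophobic subunits of complexes I, III, IV and V and none of complex II. All remaining subunits are transcribed in the nucleus, translated in the cytosol and imported, so that each of these complexes except complex II is built from the products of both genomes. Liver is rich in mitochondria, which also carry out fatty acid oxidation, ketone body synthesis and part of the urea cycle.

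Estimated counts per library summed to between 18064295 and 30036662. The transcript of albumin, the main secreted protein of hepatocytes, stood between 36169 and 205802 CPM and marked every library as liver. CPM here is a count set relative to its library's total after that total was adjusted by the trimmed mean of M values (TMM). With plain library totals the median change of all tested genes moved to -0.33 for pregnancy in germ-free mice, to -0.28 for germ-free status in pregnant mice and to -0.29 for the difference between the pregnancy changes, so changes are given relative to the TMM scale. Plain totals also moved the balance of calls over all genes, to 470 higher and 2127 lower for pregnancy in germ-free mice, against 1139 higher and 574 lower with TMM, and to 551 higher and 544 lower in conventional mice, against 875 and 561 with TMM. Across 50 pairs of libraries within groups, none agreed within sampling noise.

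Several mitochondrial genes have near-identical copies in the nuclear genome, and this decides which row their reads were given to. Of the 13, 5 had an annotated copy whose estimated counts were over 1% of the gene's own, all within a stretch of chromosome 1. These were Gm29216 for mt-Co1, Gm28661 for mt-Co2, Gm10925 for mt-Atp6, Gm28437 for mt-Co3 and Gm28438 for mt-Nd3. Copies under that limit were not listed. Over the aligned length, Gm28661, Gm10925 and Gm28437 were 100% identical to their mitochondrial genes (681, 678 and 783 bases). Gm28438 differed from mt-Nd3 by 1 base in 345, the substitution T3C counted from 1 at the first base of mt-Nd3, with the mitochondrial base first. Gm29216 differed from mt-Co1 by 6 bases in 492, all of them near the start of the copy. The windows that hold these differences are shown from the GRCm38 transcripts because, over the compared length, the letters in capitals are all that separates each pair. mt-Co1 is 1545 bases long, and reads from its part outside the copy also bear on its assignment. Capitals mark the differing bases, mt-Nd3 lies at chrM:9459-9518 and mt-Co1 at chrM:6381-6440 on the plus strand, Gm28438 at chr1:24613060-24613119 and Gm29216 at chr1:24616138-24616197 on the minus strand.
mt-Nd3: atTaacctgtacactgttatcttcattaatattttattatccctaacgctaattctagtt
Gm28438: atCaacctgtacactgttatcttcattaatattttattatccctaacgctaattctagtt
mt-Co1: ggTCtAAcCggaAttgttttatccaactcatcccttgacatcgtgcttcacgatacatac
Gm29216: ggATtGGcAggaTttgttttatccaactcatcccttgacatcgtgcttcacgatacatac

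The share of reads given to these copies varied between libraries of the same group. For mt-Nd3, which encodes a small membrane subunit of complex I, Gm28438 held 0 to 1.31% of the summed pair in the 5 germ-free pregnant libraries. It held 0 to 78.8% in germ-free non-pregnant libraries, 0 to 83.4% in conventional pregnant libraries and 0 to 74.7% in conventional non-pregnant libraries. Gm28661, the copy of the cytochrome c oxidase gene mt-Co2, was at 0 in every germ-free pregnant library and took over 20% in 1 germ-free non-pregnant, 1 conventional pregnant and 2 conventional non-pregnant libraries. Gm10925, the copy of the ATP synthase gene mt-Atp6, took over 20% in the same number of libraries of each group. Gm29216 differed from this pattern, with 7.07 to 28.6% of its pair in every library. Values of these 5 mitochondrial genes are therefore uncertain on their own. The mitochondrial sums, their median changes with pregnancy, changes of mt-Nd3 and levels of mt-Atp6 in conventional pregnant livers are also given with copies added back. So are the changes of these 5 genes with germ-free status in pregnant mice. Other values are without the copies.

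**Figure D1:**
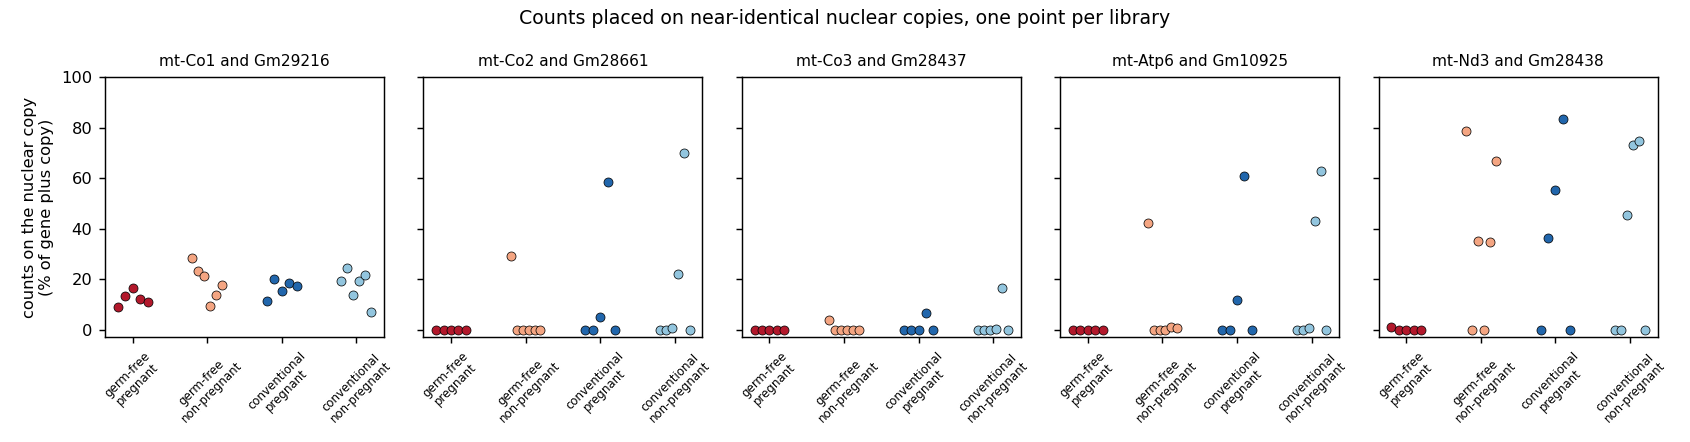
Percent of the summed counts of a subunit gene and its near-identical copy that was assigned to the copy, for each library, with germ-free pregnant, germ-free non-pregnant, conventional pregnant and conventional non-pregnant libraries from left to right; each point is 1 library. The copies of mt-Co2, mt-Atp6, mt-Co3 and mt-Nd3 lie at or near 0 in all 5 germ-free pregnant libraries and reach 83.4% elsewhere, whereas the copy of mt-Co1 holds a share in every library.

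Some mitochondrial genes also overlap each other. The last 43 bases of mt-Atp8 are the first bases of mt-Atp6, at chrM:7927-7969, and reads there can be assigned to either ATP synthase gene. In that stretch, shown in GRCm38 letters, capitals mark the start codon of mt-Atp6 and the stop codon of mt-Atp8.
mt-Atp8 and mt-Atp6: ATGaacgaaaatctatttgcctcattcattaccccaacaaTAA

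The overlaps of mt-Nd4l with mt-Nd4 and of mt-Nd5 with mt-Nd6 cover 7 and 14 bases. mt-Nd6 is the only member on the other strand of mitochondrial DNA. Whether counting used strand is not given in the sources used here, so reads from the opposite strand of mt-Nd6 cannot be told apart from its own.

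Transcripts of the 13 mitochondrial genes made up a large and variable part of the liver RNA counted. Their summed share of all counts ran between 5.87% in conventional pregnant replicate 2 and 31.9% in germ-free non-pregnant replicate 4. The sum was 193955 ± 82493 CPM in germ-free pregnant livers (SD, n = 5), with libraries between 86778 and 298980. It was 195445 ± 106151 CPM in germ-free non-pregnant livers (SD, n = 6), 99486 ± 49826 CPM in conventional pregnant livers (SD, n = 5) and 153957 ± 73999 CPM in conventional non-pregnant livers (SD, n = 6). The libraries of all 4 groups overlap.

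The 85 nuclear rows summed to far less. Their sum was 10846 ± 1630 CPM in germ-free pregnant livers (SD, n = 5) and 13383 ± 2007 CPM in germ-free non-pregnant livers (SD, n = 6). It was 9540 ± 1661 CPM in conventional pregnant livers (SD, n = 5) and 13135 ± 2845 CPM in conventional non-pregnant livers (SD, n = 6). The mitochondrial sum was 17.4 ± 5.39 times the nuclear sum in germ-free pregnant livers, 15.0 ± 9.24 times in germ-free non-pregnant livers, 10.4 ± 4.97 times in conventional pregnant livers and 11.5 ± 4.22 times in conventional non-pregnant livers. Within groups, the pooled SD between libraries of the mean log2 level was 0.79 over the mitochondrial genes and 0.27 over the tested nuclear genes. With the copies added back, the mitochondrial sums became 200736 ± 84933, 208031 ± 107523, 108598 ± 50423 and 172743 ± 85703 CPM in germ-free pregnant, germ-free non-pregnant, conventional pregnant and conventional non-pregnant livers.

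**Figure D2:**
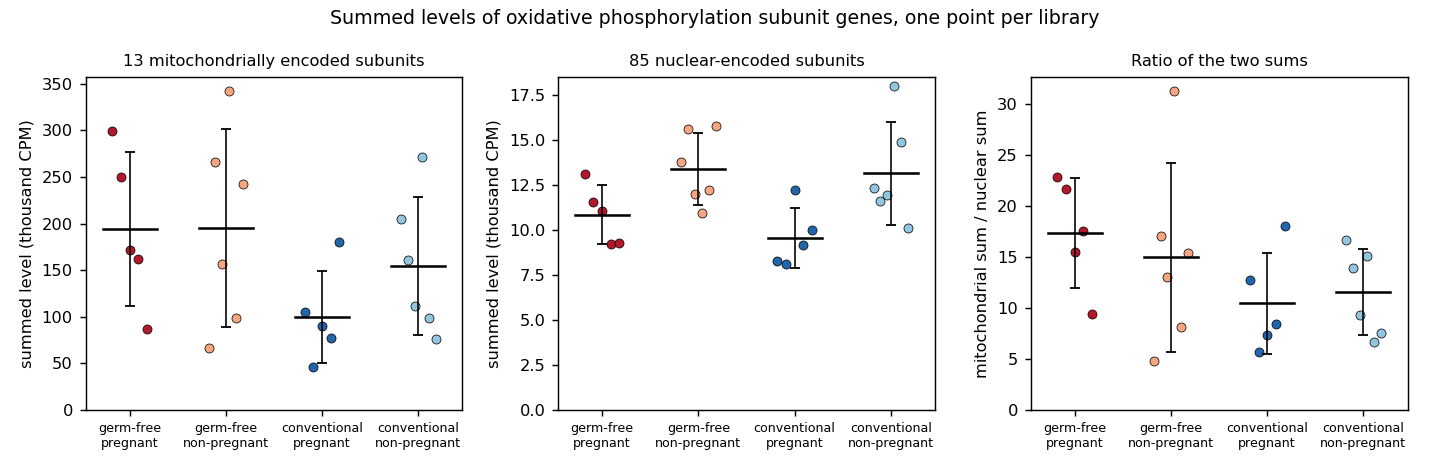
Summed level of the mitochondrially encoded subunits, summed level of the nuclear-encoded subunits (both drawn in units of 1000 CPM) and their ratio, for each library, with the groups from left to right germ-free pregnant, germ-free non-pregnant, conventional pregnant and conventional non-pregnant; points are libraries, and bars give the group mean with its SD. The mitochondrial sums span 46377 to 342428 CPM and overlap in all groups, whereas the nuclear sums stay between 8126 and 17984 CPM.

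Per kilobase of transcript, averaged over all libraries, mt-Co1 was the highest of the mitochondrial genes at 27255 CPM per kb, followed by mt-Co3, mt-Co2 and mt-Atp6 at 24582, 23678 and 22804. These encode the catalytic core of cytochrome c oxidase and the proton channel of ATP synthase. mt-Cytb, the cytochrome b subunit of complex III, stood at 15265 CPM per kb. The complex I genes lay between 5026 (mt-Nd5) and 10704 (mt-Nd4) CPM per kb, and mt-Atp8 was lowest at 1209. Full lengths were used, 204 bases for mt-Atp8, without correction for fragment length, so per-kilobase levels of short genes are less certain. The highest nuclear genes were below all 13. Uqcrq and Uqcr11, small subunits of complex III, stood at 928 and 505 CPM per kb, Cox6a1 and Ndufa4 of complex IV at 689 and 665, and Atp5e and Atp5g3 of ATP synthase at 492.6 and 405. Ndufa4 was first described in complex I and is counted with complex IV here.

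Single mitochondrial genes moved with the library. Of the 13, 10 had their highest value in germ-free non-pregnant replicate 4 and 9 had their lowest in conventional pregnant replicate 2. mt-Nd2, a membrane subunit of complex I, measured 16858, 13847, 9299, 9870 and 4788 CPM in germ-free pregnant livers, against a lowest, median and highest of 5045, 13028 and 21147 CPM in germ-free non-pregnant livers. It measured 5681, 2623, 5141, 5008 and 9444 CPM in conventional pregnant livers, against a lowest, median and highest of 4662, 8664 and 19331 CPM in conventional non-pregnant livers. In both comparisons the pregnant and non-pregnant libraries overlapped.

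Of the 13 mitochondrially encoded subunits, 0 were called with pregnancy in either kind of mouse, where a call is an adjusted p under 0.05 in edgeR's quasi-likelihood test with Benjamini-Hochberg adjustment over 15928 genes. Over all genes it called 10.8% in either direction in germ-free and 9.02% in conventional mice. In germ-free mice the median log2 change of the 13 genes, pregnant over non-pregnant, was 0.06, with 8 positive, 5 negative and 0 at an unadjusted p under 0.05. In conventional mice the median was -0.60 with all 13 negative. mt-Nd2 alone had an unadjusted p under 0.05, at a log2 change of -0.89 ± 0.41 (SE) and an adjusted p of 0.197 in edgeR. DESeq2 also called 0 in both, with 0 at an unadjusted p under 0.05 in germ-free and 2 in conventional mice. Standard errors of these genes ran between 0.37 and 0.54, against a median of 0.20 for nuclear members in both comparisons. Adding the copies turned the germ-free median to -0.05 and gave -0.65 in conventional mice, and mt-Nd3 turned to -0.38 in germ-free mice, against 0.19 on its own.

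Part of the nuclear-encoded set was lower in pregnancy in both kinds of mice and no gene of it was called higher. In germ-free mice 7 of 79 tested nuclear members were called lower and 0 higher, against 3.6% of all tested genes called lower and 7.15% called higher. In conventional mice 16 of 79 were called lower and 0 higher, against 3.52% of all genes called lower and 5.49% called higher. Before adjustment, 28 and 53 nuclear members had a p under 0.05 with a lower level, in germ-free and conventional mice, against 10.4% and 9.08% of all genes. The median log2 change of the nuclear members was -0.29 in germ-free and -0.50 in conventional mice, and the medians of all genes were -0.02 and 0.04. The counts rested in part on single libraries, since leaving out 1 gave 3 to 12 calls in germ-free and 5 to 34 in conventional mice. DESeq2 called 11 and 30 lower, and plain library totals gave 52 and 27. Over all genes DESeq2 called 848 and 889 of 34868 lower, against 574 and 561 of 15928 in edgeR. Plain totals called 2127 and 544 of all genes lower. The lowest and the highest of all libraries by mitochondrial level were conventional pregnant replicate 2 and germ-free non-pregnant replicate 4. Without these libraries, chosen after seeing the data, 10 and 5 were called lower. In bulk tissue, fewer cells of a type and less RNA per cell cannot be told apart.

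Estimates below 0 were spread over most nuclear members. In germ-free mice 70 of the 79 nuclear members had a negative log2 change with pregnancy, and in conventional mice 78 of 79. Those negative in both numbered 70, which is 88.6% of nuclear members, against 33.2% of all genes. The 2 comparisons share no library. Across the 79 members their log2 changes had a Pearson correlation of 0.84 and a Spearman correlation of 0.84, given as a description since genes are not independent and shared 1 table and scaling. Members whose libraries did not overlap between groups numbered 5 in germ-free mice (Sdhd, Ndufs7, Ndufa5, Cox7a2l and Atp5f1) against 2.81% of all genes, and 4 in conventional mice (Sdhb, Ndufs7, Atp5o and Uqcrc1) against 2.39%.

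**Figure D3:**
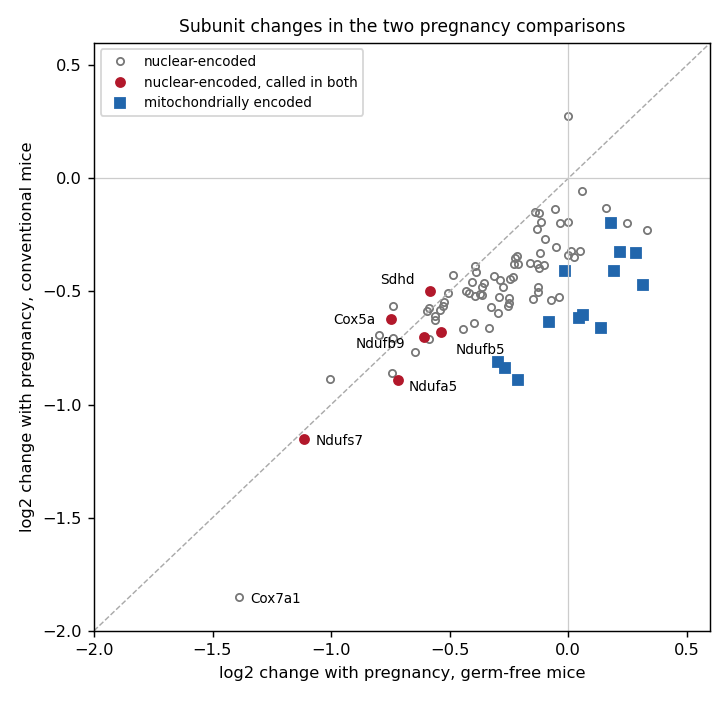
Log2 change with pregnancy in germ-free mice (horizontal axis) and in conventional mice (vertical axis), pregnant over non-pregnant in each, for the 92 tested subunit genes; each point is 1 gene, squares are mitochondrially encoded, filled circles are nuclear genes called in both, grey lines mark no change and the dashed line equal changes. Nuclear genes lie along a slope with 70 of 79 negative on both axes, whereas the 13 mitochondrial genes are all negative in conventional mice and spread on both sides of 0 in germ-free mice.

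The 6 genes called lower in both comparisons were Ndufs7, Ndufa5, Ndufb5, Ndufb9, Sdhd and Cox5a. They were 85.7% of the germ-free calls and 37.5% of the conventional calls. Over all genes, 291 were called lower in both, which is 50.7% of the germ-free and 51.9% of the conventional calls. Of the 6 genes, 4 belong to complex I, which takes electrons from NADH. In germ-free mice Ndufs7, Sdhd and Cox5a kept their call in all 21 alternative settings, and in conventional mice Ndufs7, Ndufa5 and Ndufb5 did. The others lost it under some of them, with adjusted p up to 0.104 (Ndufa5), 0.129 (Ndufb5) and 0.1101 (Ndufb9) in germ-free mice and up to 0.0644 (Ndufb9), 0.0797 (Sdhd) and 0.0958 (Cox5a) in conventional mice.

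Ndufs7 had the largest change among them. It encodes the complex I subunit that holds the last iron-sulfur cluster before ubiquinone, and lies at chr10:80249121-80256794 of GRCm38 on the plus strand. It measured 57.1, 48.3, 31.5, 34.1 and 35.0 CPM in germ-free pregnant livers, against a lowest, median and highest of 65.9, 85.1 and 113 CPM in germ-free non-pregnant livers. It measured 43.3, 43.0, 41.6, 25.1 and 37.3 CPM in conventional pregnant livers, against 59.1, 83.4 and 118 CPM in conventional non-pregnant livers. Every pregnant library lay below every non-pregnant library in both kinds of mice. The log2 change was -1.11 ± 0.20 (SE; adjusted p = 0.000431, edgeR) in germ-free and -1.15 ± 0.20 (adjusted p = 0.000422, edgeR) in conventional mice, or 0.462 and 0.449 of the non-pregnant level.

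Ndufa5, an accessory subunit in the arm of complex I that projects into the matrix, measured 122, 114, 99.5, 68.7 and 67.8 CPM in germ-free pregnant livers. Its lowest, median and highest in germ-free non-pregnant livers were 123, 153 and 199 CPM. It measured 73.9, 91.5, 81.1, 87.0 and 80.9 CPM in conventional pregnant livers, against 79.5, 147 and 227 CPM in conventional non-pregnant livers. The germ-free groups did not overlap, and the conventional groups did through 1 non-pregnant library. Its log2 changes were -0.72 ± 0.22 (adjusted p = 0.0354, edgeR) in germ-free and -0.89 ± 0.22 (adjusted p = 0.0112) in conventional mice.

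Ndufb5 and Ndufb9 encode accessory subunits of the membrane arm of complex I. Ndufb5 averaged 50.8 ± 8.37 CPM in germ-free pregnant and 73.8 ± 12.7 CPM in germ-free non-pregnant livers (SD, n = 5 and 6), a log2 change of -0.54 ± 0.17 (adjusted p = 0.0469, edgeR). It averaged 44.9 ± 7.24 CPM in conventional pregnant and 71.8 ± 18.5 CPM in conventional non-pregnant livers, a log2 change of -0.68 ± 0.17 (adjusted p = 0.0144). Ndufb5 and Mrpl47, a mitochondrial ribosomal protein gene on the opposite strand, share 530 identical bases, so reads of either could have been given to the other. Mrpl47 was also called lower, at -0.62 in germ-free and -0.61 in conventional mice. Ndufb9 averaged 133 ± 22.0 and 203 ± 44.4 CPM in germ-free pregnant and non-pregnant livers and 125 ± 25.4 and 203 ± 52.8 CPM in conventional pregnant and non-pregnant livers. Its log2 changes were -0.61 ± 0.19 (adjusted p = 0.0391, edgeR) in germ-free and -0.70 ± 0.19 (adjusted p = 0.0204) in conventional mice.

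Sdhd, a membrane anchor of succinate dehydrogenase, measured 91.0, 91.7, 116, 96.97 and 78.3 CPM in germ-free pregnant livers, against 123, 138 and 166 CPM (lowest, median, highest) in germ-free non-pregnant livers. It measured 111, 94.8, 115, 92.6 and 116 CPM in conventional pregnant livers, against 111, 144 and 206 CPM in conventional non-pregnant livers. The germ-free groups were apart and the conventional groups overlapped through the lowest non-pregnant library. Its log2 changes were -0.58 ± 0.14 (adjusted p = 0.0081, edgeR) in germ-free and -0.50 ± 0.14 (adjusted p = 0.027) in conventional mice.

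Cox5a, a matrix-side subunit of cytochrome c oxidase, measured 92.9, 66.4, 63.8, 59.7 and 64.2 CPM in germ-free pregnant livers, against 76.5, 118 and 150 CPM (lowest, median, highest) in germ-free non-pregnant livers. It measured 74.9, 84.1, 91.0, 65.1 and 62.8 CPM in conventional pregnant livers, against 83.5, 110 and 156 CPM in conventional non-pregnant livers. Germ-free pregnant replicate 1 stood above the other pregnant libraries of its group and above the lowest germ-free non-pregnant library. Its log2 changes were -0.75 ± 0.18 (adjusted p = 0.00941, edgeR) in germ-free and -0.62 ± 0.18 (adjusted p = 0.0351) in conventional mice.

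**Figure D4:**
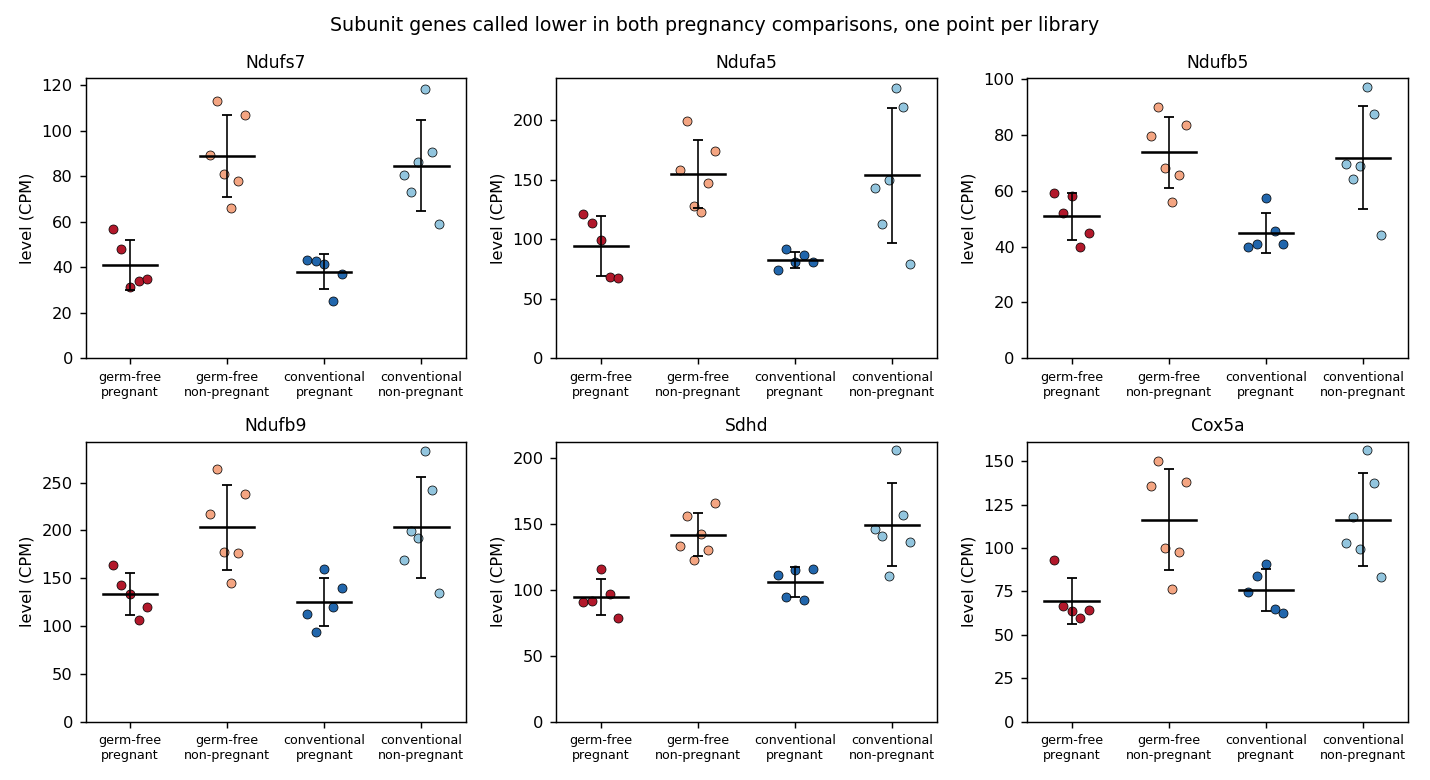
Level in CPM of single subunit genes in each library, with the groups from left to right germ-free pregnant, germ-free non-pregnant, conventional pregnant and conventional non-pregnant; points are libraries, and bars give the group mean with its SD. Ndufs7 lies between 25.1 and 57.1 CPM in the pregnant libraries and between 59.1 and 118 CPM in the non-pregnant libraries of both kinds of mice.

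Among the other nuclear genes of complex I, 3 were called lower in conventional mice and missed the threshold in germ-free mice. Ndufc2, a small membrane-arm subunit, averaged 56.3 ± 8.60 CPM in conventional pregnant and 80.2 ± 15.0 CPM in conventional non-pregnant livers (log2 change -0.51 ± 0.15, adjusted p = 0.0287, edgeR). Ndufa6, the highest complex I gene per kilobase at 356 CPM per kb, averaged 96.4 ± 19.8 and 153 ± 41.8 CPM in those groups (-0.66 ± 0.20, adjusted p = 0.0352). Ndufs3, a core subunit of the matrix arm that was named after its values were seen, had a log2 change of -0.48 ± 0.14 (adjusted p = 0.0381). In germ-free mice their log2 changes were -0.37, -0.44 and -0.13, with adjusted p of 0.109, 0.161 and 0.643. Their conventional calls were lost in some settings, with adjusted p up to 0.0817, 0.108 and 0.106. By complex, 4 of 35 tested nuclear complex I genes (median log2 change -0.25) were called lower in germ-free mice, against 3.6% of all genes. In conventional mice 7 of 35 were called lower (median -0.44), against 3.52% of all genes.

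Not every complex I gene had a negative estimate. Ndufb7, an accessory membrane-arm subunit, averaged 127 ± 37.1 CPM in germ-free pregnant and 101 ± 25.4 CPM in germ-free non-pregnant livers, a log2 change of 0.33 with an adjusted p of 0.336 in edgeR. It averaged 86.5 ± 18.8 CPM in conventional pregnant and 101 ± 18.7 CPM in conventional non-pregnant livers, at -0.23 with an adjusted p of 0.573. The difference between these changes was 0.56 ± 0.29, with an adjusted p of 0.863. Ndufb4 was uncertain, since 3.50 to 49.6% of its reads and those of its identical copy were given to Ndufb4c.

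Complex II is encoded wholly in the nucleus. Whether the changes of its 4 genes differ from each other was not tested. Sdha, the catalytic flavoprotein, averaged 264 ± 37.8 CPM in germ-free pregnant and 274 ± 41.6 CPM in germ-free non-pregnant livers, and 264 ± 64.1 CPM in conventional pregnant and 290 ± 69.3 CPM in conventional non-pregnant livers. Its log2 changes were -0.05 and -0.14, with adjusted p of 0.892 and 0.729 in edgeR. Sdhb, the iron-sulfur subunit, fell in conventional mice to 121 ± 26.5 CPM in pregnant livers, against 175 ± 17.7 CPM in non-pregnant livers (-0.53 ± 0.14, adjusted p = 0.0183). The pregnant libraries lay between 85.5 and 154 CPM and the non-pregnant libraries between 158 and 206 CPM, with no overlap. In germ-free mice Sdhb averaged 160 ± 25.2 CPM in pregnant and 177 ± 17.2 CPM in non-pregnant livers (-0.15, adjusted p = 0.572). Sdhc, the other membrane anchor, was called lower in conventional mice (-0.43 ± 0.13, adjusted p = 0.0319) and had -0.23 in germ-free mice (adjusted p = 0.266). The conventional calls of Sdhb and Sdhc were lost in some settings, with adjusted p up to 0.0628 and 0.0858. With Sdhd, 3 of 4 complex II genes were called lower in conventional mice, against 3.52% of all genes. In germ-free mice 1 of 4 was called lower, against 3.6% of all genes.

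Complex III passes electrons on to cytochrome c. Of its 8 tested nuclear genes, edgeR called 0 and DESeq2 called 1 lower in germ-free mice (median log2 change -0.30). Over all genes edgeR called 3.6% lower and DESeq2 848 of 34868. By either tool 3 of the 8 had an unadjusted p under 0.05, against 10.4% of all genes lower at that level in edgeR. In conventional mice edgeR called 1 lower (median -0.41), against 3.52% of all genes. That gene was Uqcrc1, a matrix-side core protein named after its values were seen, at 135 to 195 CPM in conventional pregnant and 205 to 250 CPM in conventional non-pregnant livers (-0.39 ± 0.12, adjusted p = 0.0343, edgeR; up to 0.109 in other settings). The abundant Uqcrq averaged 474 ± 128 and 550 ± 163 CPM in germ-free pregnant and non-pregnant livers and 360 ± 117 and 469 ± 189 CPM in conventional pregnant and non-pregnant livers. Its log2 changes were -0.21 and -0.38, neither past the threshold (adjusted p = 0.7 and 0.472). Cytochrome c1, whose symbol Cyc1 falls outside the naming rule, was called lower in both, at -0.45 (adjusted p = 0.0347) in germ-free and -0.58 (adjusted p = 0.00796) in conventional mice.

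Complex IV, cytochrome c oxidase, had median log2 changes of -0.56 in germ-free and -0.61 in conventional mice over 15 tested nuclear genes, the most negative of the nuclear medians by complex. Calls, all of them lower, numbered 2 of 15 in germ-free and 4 of 15 in conventional mice, against 3.6% and 3.52% of all genes. Several of its subunits exist as liver-type and muscle- or lung-type isoforms. The widespread forms Cox4i1, Cox6a1, Cox6b1, Cox7a2 and Cox8a were abundant, whereas Cox4i2, Cox6a2, Cox7b2, Cox8b and Cox8c were too low to test. Cox4i1 averaged 387 ± 67.3 and 472 ± 75.7 CPM in germ-free pregnant and non-pregnant livers (-0.29, adjusted p = 0.218) and 329 ± 39.3 and 450 ± 48.3 CPM in conventional pregnant and non-pregnant livers (-0.45 ± 0.14, adjusted p = 0.0498). Ndufa4 averaged 214 ± 35.1 CPM in conventional pregnant and 350 ± 121 CPM in conventional non-pregnant livers (-0.71 ± 0.22, adjusted p = 0.0449) and had -0.59 in germ-free mice (adjusted p = 0.096). Both conventional calls were lost in some settings, with adjusted p up to 0.118 for Cox4i1 and 0.136 for Ndufa4. Ndufa4l2, a paralog of Ndufa4, averaged between 1.33 and 1.61 CPM in the 4 groups.

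Cox7a1, the heart and skeletal muscle form of subunit VIIa, was expressed at a low level. It measured 0.428, 2.74, 0.232, 0.14 and 0.335 CPM in germ-free pregnant livers, against 1.42, 1.97 and 2.52 CPM (lowest, median, highest) in germ-free non-pregnant livers. It ranged between 0.333 and 1.28 CPM in conventional pregnant and between 1.18 and 4.6 CPM in conventional non-pregnant livers. Germ-free pregnant replicate 2 was above all germ-free non-pregnant libraries, and the other 4 pregnant libraries were below them. The log2 change was -1.39 ± 0.57 (adjusted p = 0.127, edgeR) in germ-free and -1.85 ± 0.56 (adjusted p = 0.0407, up to 0.1098 in other settings) in conventional mice. The 8 markers of fat and muscle summed to between 6.67 and 36.4 CPM in germ-free pregnant, 4.34 and 21.5 in germ-free non-pregnant, 5.33 and 12.1 in conventional pregnant, and 6.96 and 22.9 CPM in conventional non-pregnant livers. The muscle markers Ckm, Acta1, Myh7 and Mb were at or under 0.737 CPM in every library, whereas Adipoq, Plin1 and Cfd reached 3.20, 5.25 and 8.93 CPM. Des, which is also in the stellate cell list, reached 35.8 CPM, with a median of 6.26 over all libraries. Of the 4 listed markers that passed the filter, edgeR called 0. Their median log2 change was 0.04 in germ-free mice (2 positive, 2 negative) and -1.05 in conventional mice (all 4 negative). Their part in the Cox7a1 result was not tested. Cox7a2l, a factor in the joining of complexes III and IV, lay between 39.0 and 59.9 CPM in germ-free pregnant and between 59.9 and 80.4 CPM in germ-free non-pregnant livers (-0.48 ± 0.14, adjusted p = 0.0311, up to 0.094 in other settings). In conventional mice its change was -0.43 ± 0.14 (adjusted p = 0.0637).

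Complex V, ATP synthase, had 0 of 17 tested nuclear genes called by edgeR and 2 called lower by DESeq2 in germ-free mice (median -0.32). At an unadjusted p under 0.05 it had 6 and 8, against 10.4% of all genes lower at that level in edgeR. In conventional mice edgeR called 1 of 17 lower and DESeq2 called 8 (median -0.51). Over all genes edgeR called 3.6% lower in germ-free and 3.52% in conventional mice. DESeq2 called 848 and 889 of 34868 genes lower. The gene called by edgeR, Atp5o, encodes the OSCP subunit that ties the catalytic head to the stalk. It measured 98.4, 101, 111, 89.0 and 120 CPM in conventional pregnant livers, against 137, 160 and 203 CPM (lowest, median, highest) in conventional non-pregnant livers. These groups did not overlap, and the log2 change was -0.66 ± 0.15 (adjusted p = 0.00554, edgeR). In germ-free mice Atp5o averaged 130 ± 25.5 CPM in pregnant and 163 ± 28.7 CPM in non-pregnant livers (-0.33 ± 0.15, adjusted p = 0.162). Atp5f1 lay wholly below the non-pregnant libraries in germ-free pregnant livers yet missed the threshold (-0.51 ± 0.18, adjusted p = 0.0664).

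The genes Atp5g1, Atp5g2 and Atp5g3 encode the same mature ring subunit c with different import signals. Per kilobase they stood at 76.2, 23.8 and 405 CPM per kb. Atp5g2 is uncertain, because Gm10175, identical over 645 bases, held 77.0 to 91.4% of the reads of the pair. Atp5k, a small membrane subunit, averaged 47.6 ± 12.9 CPM in germ-free pregnant and 95.7 ± 29.8 CPM in germ-free non-pregnant livers, a log2 change of -1.01 ± 0.36 that missed the threshold (adjusted p = 0.0812, edgeR). In conventional mice its change was -0.89 ± 0.36 (adjusted p = 0.139).

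**Figure D5:**
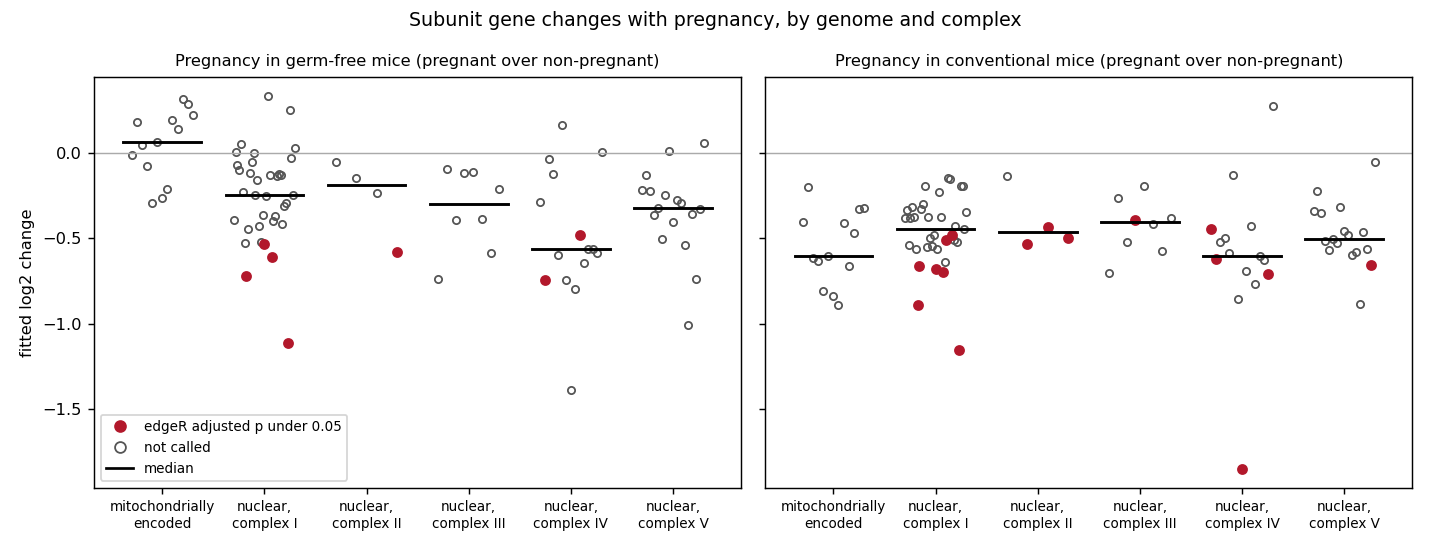
Log2 change of each tested subunit gene with pregnancy in germ-free and in conventional mice (pregnant over non-pregnant), grouped by genome and complex; each point is 1 gene, filled red where the adjusted p is under 0.05, and lines mark group medians. Nuclear genes of all 5 complexes have medians between -0.19 and -0.61, and the mitochondrial genes have medians of 0.06 in germ-free and -0.60 in conventional mice.

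Germ-free status changed no subunit gene past the threshold. In pregnant mice, germ-free over conventional, 0 of 92 members were called by edgeR and 0 by DESeq2, against 0.132% of all genes called. All 13 mitochondrial genes were positive. On the TMM scale and without copies their median was 0.97, or 1.96 times the conventional level. Over the alternative settings this median ran between 0.74 and 1.31. Of the 13, 8 had an unadjusted p under 0.05 in edgeR, against 3.93% of all genes higher at that level. As a share of all counts, the mitochondrial sum averaged 16.2% in germ-free pregnant and 9.81% in conventional pregnant livers. mt-Nd6, a membrane subunit of complex I, averaged 4682 ± 1535 CPM in germ-free pregnant and 2241 ± 913 CPM in conventional pregnant livers (1.06 ± 0.39, adjusted p = 0.344). mt-Cytb averaged 21794 ± 10328 CPM in germ-free pregnant and 10618 ± 4844 CPM in conventional pregnant livers (1.04 ± 0.44, adjusted p = 0.409). The copies held up to 3.95% of the mitochondrial sum with copies in germ-free pregnant libraries and up to 21.8% in conventional pregnant libraries. With its copy added, mt-Nd3 changed by 0.56, against 1.23 on its own. With theirs added, mt-Co1, mt-Co2, mt-Atp6 and mt-Co3 changed by 0.78, 0.76, 0.69 and 0.79, against 0.85, 0.94, 0.91 and 0.81. Nuclear members had a median of 0.19, which ran between -0.06 and 0.29 over the alternative settings, and 6 at an unadjusted p under 0.05. DESeq2 gave 10 mitochondrial and 8 nuclear members at that level.

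In non-pregnant mice 0 of 92 members were called by edgeR or DESeq2, against 0.157% of all genes, and 0 had an unadjusted p under 0.05 by either tool, against 6.01% of all genes in edgeR. The median was 0.39 for mitochondrial genes, all 13 positive, and 0.02 for nuclear genes. The germ-free change with pregnancy minus the conventional one was tested as an interaction. edgeR called 0 members and 0.0% of all genes, with 0 members at an unadjusted p under 0.05, against 5.67% of all genes. DESeq2 called 0 members, with 1 at an unadjusted p under 0.05. The median difference was 0.60 for mitochondrial genes, all 13 positive, with standard errors between 0.52 and 0.76. It was 0.14 for nuclear genes, positive for 67 of 79. The larger number of nuclear calls in conventional mice is therefore not shown to be a difference between the 2 kinds of mice.

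Genes that build and regulate the complexes were followed as lists, each to be read against the 7.15% of all genes called higher and 3.6% called lower in germ-free pregnancy and the 5.49% and 3.52% in conventional pregnancy. Of 45 tested assembly factors, 2 were called higher and 2 lower in germ-free pregnancy, and 3 higher and 2 lower in conventional pregnancy, with median log2 changes of -0.03 and -0.09. Acad9, which works both in complex I assembly and in fatty acid oxidation, rose in both, by 1.19 in germ-free and 0.90 in conventional mice on the log2 scale (adjusted p = 0.000182 and 0.00368, edgeR). Of 33 genes for expression of mitochondrial DNA, 1 was called higher and 3 lower in germ-free mice, and 0 higher and 2 lower in conventional mice (medians -0.10 and -0.15). Fastk, whose mitochondrial form is needed for mt-Nd6 mRNA, fell in both (-0.48 and -0.49). Of 78 mitochondrial ribosomal protein genes, 2 were called lower in germ-free and 5 in conventional mice, and 0 higher (medians -0.08 and -0.18).

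Of 15 regulators of mitochondrial genes, 1 was called lower and 0 higher in germ-free mice, and 2 lower and 1 higher in conventional mice, against the same shares of all genes (medians 0.06 and 0.06). Ppargc1a, a coactivator of nuclear genes for mitochondrial proteins, fell in both, with log2 changes of -1.14 ± 0.25 in germ-free (adjusted p = 0.00346, edgeR) and -1.02 ± 0.25 in conventional mice (adjusted p = 0.0116). Esrra, a nuclear receptor that works with it, was called lower in conventional mice (-0.40, adjusted p = 0.0395), and Ppard, a nuclear receptor for fatty acids, was called higher there (1.00 ± 0.22, adjusted p = 0.00397). Of 18 genes of the citric acid cycle and pyruvate entry, 1 was called higher and 3 lower in each comparison, against those shares (medians -0.17 and -0.27). Suclg1, a subunit of succinyl-CoA ligase, fell in both (-0.54 and -0.49), and Idh2, the NADP-linked mitochondrial isocitrate dehydrogenase, rose in both (0.79 and 0.66).

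Other RNA levels moved with the same groups. Calls in these lists are to be read against 7.15% of all genes called higher and 3.6% lower in germ-free pregnancy. In conventional pregnancy those shares were 5.49% and 3.52%. Handling and stress genes summed to between 3045 and 6078 CPM in germ-free pregnant, 699 and 1806 in germ-free non-pregnant, 742 and 2807 in conventional pregnant, and 301 and 1120 CPM in conventional non-pregnant livers. Of 20 tested, 3 were called higher and 3 lower in germ-free pregnancy and 8 higher and 0 lower in conventional pregnancy. Their median log2 change was -0.06 in germ-free mice (10 positive, 10 negative) and 0.98 in conventional mice (17 positive, 3 negative). The 4 germ-free calls with the lowest p were Gadd45b (2.30), Mt2 (2.50), Hspa1b (-2.08) and Mt1 (2.07), so the sums do not describe the list as a whole. The 9 hepatocyte markers summed to between 137699 and 209409, 59014 and 98012, 76201 and 253913, and 69782 and 97536 CPM in the same order of groups. The 9 erythroid markers summed to between 1760 and 3571 CPM in germ-free pregnant, 242 and 1770 in germ-free non-pregnant, 371 and 2252 in conventional pregnant, and 451 and 864 CPM in conventional non-pregnant livers. Of these, 6 hepatocyte markers were called higher and 1 lower in germ-free pregnancy and 2 higher and 2 lower in conventional pregnancy, and 7 and 2 erythroid markers were called higher. Of 8 Kupffer cell, 6 T and NK cell, 6 B and plasma cell and 3 neutrophil markers edgeR called 0 in either. In germ-free and conventional pregnancy 1 and 0 of 7 endothelial markers were called higher, 0 and 1 of 7 stellate cell markers higher and 1 and 1 lower, and 1 and 0 of 5 cholangiocyte markers higher and 1 and 1 lower. Their part in the subunit results was not tested.

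Transcript length moved with the result as well. Short nuclear members, under 1000 bases, had median log2 changes of -0.36 in germ-free and -0.54 in conventional mice (53 genes), against -0.14 and -0.39 for the 26 longer ones. Other protein-coding genes under 1000 bases had medians of -0.11 and -0.12. Its part in the subunit results was not tested.

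Promoters of nuclear members were read for 68 genes that matched RefSeq records on GRCm38.p6, over the 250 bases before the annotated start and on both strands. The letters GCGC and TGCGC with any 1 base between them, the kind of site bound by NRF1, occurred in 13 of 68 (19.1%), against 4.23% of 27025 genes with a promoter record and 8.75% of 10714 tested coding genes. CCGGAAG, the kind of site bound by ETS factors, occurred in 12 (17.6%), against 7.83% and 14.7% in those same gene sets. TATAAA occurred in 6 (8.82%), against 14.3% and 8.86%. A match describes the letters and not a bound site. Of the 17 members called in pregnancy in either kind of mouse, 14 had a record and 2 held the NRF1-type letters, Ndufa5 and Sdhd. As an example of a member that was called in both comparisons and held none of these letters, the window before Cox5a is shown, at chr9:57520982-57521231 on the plus strand.
Cox5a: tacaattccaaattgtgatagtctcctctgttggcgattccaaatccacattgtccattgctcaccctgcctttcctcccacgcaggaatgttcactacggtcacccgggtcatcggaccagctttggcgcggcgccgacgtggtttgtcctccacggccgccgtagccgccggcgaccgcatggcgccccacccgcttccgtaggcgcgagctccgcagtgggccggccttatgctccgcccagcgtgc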

How the data were processed

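RNA-seq libraries of 22 mouse livers were analysed from 1 table of estimated counts per gene that the authors deposited. The tools and build they list are GRCm38.p6, Salmon 0.11.3 and edgeR 3.24.3, per the submitters' processing notes. No header gives the settings. Table IDs were matched to GENCODE M21 symbols (97.7% with their version, 99.9% with or without). Estimated counts were rounded to whole numbers. The rounding differences, summed without sign, came to 0.00829% of the summed counts, although 37.7 to 53.7% of nonzero values per library were not whole. Groups followed the sample titles. edgeR 4.0.16 (quasi-likelihood, TMM, all 22 libraries in 1 fit without a pairing term, minimum count 10 and total 15) was fitted to 15928 genes, and the threshold for a call was 0.05 on p adjusted by Benjamini-Hochberg over all of them. Standard errors were derived from the F statistic. Per-kilobase values used the median length of coding transcripts. DESeq2 1.42.0, other scalings and filters, a replicate block and left-out libraries were alternatives. Copies were found with blastn 2.17.0+ (at least 200 bases at 97% identity) and kept where their counts were over 1% of the gene's own. Promoter windows are from RefSeq. The fit was tested on simulated data.

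The members and lists were chosen with earlier results of these data known. Genes were named from a set fixed by rule, of which some, such as mt-Nd1, Cox5b, Cox7b and Atp5mpl, are not described singly. The set held all mitochondrial and complex II members and the called members (the 8 with the lowest p where more than 12 were called). It also held the 2 largest changes in each direction per comparison and the 2 highest per kilobase in each complex. Tissue isoforms, the Atp5g family and up to 4 called genes per list completed it. Ndufs3, Uqcrc1 and Atp5f1 were named after their values were seen.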

Additional observations from a re-analysis of the deposited data

Results flagged for a closer look

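Of 200 sets of values checked, 7 had a highest or lowest library far from the others by Dixon's criterion at 95%, and chance alone gives about 1 in 20. Each set was a gene eligible for naming, or a sum, in 1 group. In germ-free pregnant livers, Cox7a1 had its highest value, 2.74 CPM, in replicate 2, with the next at 0.428, and Cox5a had its highest, 92.9 CPM, in replicate 1, with the next at 66.4. In germ-free non-pregnant livers, Cox6b2, a testis form of a complex IV subunit, was highest at 1.02 CPM in replicate 3, with the next at 0.41. In conventional pregnant livers, mt-Atp6 was highest at 23091 CPM in replicate 5, with the next at 9277, and Cox8a was highest at 199 CPM in replicate 3, with the next at 124. In conventional non-pregnant livers, Ndufb7 was lowest at 65.6 CPM in replicate 6, with the next at 102, and Ndufs8 was highest at 107 CPM in replicate 4, with the next at 74.6. The copy of mt-Atp6 held a share of 0 in conventional pregnant replicate 5, but 12.0% in replicate 3 and 60.8% in replicate 4. With the copy added, replicates 1 to 5 stood at 9142, 4760, 10541, 11415 and 23091 CPM. The criterion was not applied to levels with copies added.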

How the results depend on the processing

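No subunit gene was called higher in any pregnancy comparison under the 21 alternatives run for each. The count called lower in conventional pregnancy, 16, became 27 with plain library totals and 7 with a replicate block. It was 5 with the conventional groups alone and 30 with DESeq2. It was also 5 without the lowest and highest of all libraries by mitochondrial level, a setting added after seeing the data. Leaving out 1 library gave 5 to 34. It was 5 without conventional non-pregnant replicate 4 or conventional pregnant replicate 2, 6 without conventional non-pregnant replicate 5 or pregnant replicate 4, 9 without pregnant replicate 1 or 5, 28 without pregnant replicate 3 and 34 without non-pregnant replicate 6. Over all genes in conventional pregnancy, plain totals called 544 lower, the block 470, the conventional groups alone 393 and DESeq2 889, against 561. The count of subunit genes in germ-free pregnancy, 7, became 52 with plain totals, 13 with the germ-free groups alone and 11 with DESeq2. That count was 3 to 12 with 1 library left out. It was 3 without germ-free non-pregnant replicate 1, 2 or 6 or pregnant replicate 4 or 5, 4 without pregnant replicate 3 and 12 without pregnant replicate 1. The replicate block gave 5 there. Over all genes in germ-free pregnancy, plain totals called 2127 lower, the germ-free groups alone 772, DESeq2 848 and the block 507, against 574. Replicate numbers did not pair the libraries, since 5 of 21 pairs correlated over 0.1 and 4 correlated best with their own number. Ndufs7, Atp5o, Ndufa5 and Ndufb5 kept their call in all 21 settings in conventional mice, as did Ndufs7, Sdhd and Cox5a in germ-free mice. The median of nuclear members became -0.61 in germ-free pregnancy with plain totals, and their median interaction became -0.13, against 0.14. The cause of these shifts was not tested. For the 23 calls of single genes, 344 values over all settings kept the call and 139 lost it, none with a change of direction. The other 469 counts, medians and group ratios did not pass the limits set for a shift, and counts of 0 in every setting were among them. A mitochondrial median was held to be unchanged if it moved by less than 0.79, a wide limit. Over the settings that median ran between -0.23 and 0.30 in germ-free pregnancy and between -0.95 and -0.37 in conventional pregnancy. The spread between libraries, a pooled SD of 0.79 for the mean log2 level of the mitochondrial genes, limits the precision of these genes.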

Other observations

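Some genes for mitochondrial proteins outside the 5 complexes were called in pregnancy, while the lists that hold them had few calls. Of all genes, 7.15% were called higher and 3.6% lower in germ-free pregnancy, and 5.49% and 3.52% in conventional pregnancy. Ucp2, a carrier of the inner mitochondrial membrane, rose in pregnancy by 1.49 ± 0.20 in germ-free and 1.29 ± 0.20 in conventional mice on the log2 scale (adjusted p = 2.34e-05 and 0.000162, edgeR), the only gene called of 7 tested carriers, porins and uncoupling proteins. Gpx1, a glutathione peroxidase of cytosol and mitochondria, fell, with log2 changes of -0.90 ± 0.21 and -1.44 ± 0.21 (adjusted p = 0.00519 and 7.39e-05), the only gene called of 7 antioxidant enzymes. A list of 12 mitochondrial chaperones, proteases and transcription factors of the mitochondrial stress response had 2 called lower in germ-free mice and 0 in conventional mice. They were Hspe1, a mitochondrial chaperonin (-0.49), and Ddit3, a nuclear stress transcription factor that is no chaperone or protease (-1.13). Pdhb, of the pyruvate dehydrogenase complex, and Fh1, fumarase, were called lower in germ-free mice (-0.85 and -0.58), and Idh3a and Idh3g in conventional mice (-0.86 and -0.43).

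Rows of the table that match the naming rule without a protein-coding label numbered 12. Ndufb1-ps held 29159 estimated counts over all libraries and Ndufb4c held 12422. The 2 mitochondrial ribosomal RNAs summed to between 185 and 508 CPM in germ-free pregnant, 62.7 and 1383 in germ-free non-pregnant, 44.9 and 836 in conventional pregnant, and 168 and 647 CPM in conventional non-pregnant livers.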
